A study of Saccharomyces cerevisiae with 12 samples.

Results

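The 10 genes described here, PHO4, SPL2, PHO84, PHO89, PHO5, PHO8, VTC1, VTC3, VTC4 and PHM6, belong to the phosphate (PHO) system of budding yeast, from its transcription factor to phosphate uptake, phosphate release and polyphosphate synthesis. They were chosen by gene symbol, with earlier results of these data known, and each had 1 probe set among the 5449 Saccharomyces cerevisiae genes measured. RNA came from 12 cultures of 4 strains, hac1∆(hsf1), hac1∆, WT(hsf1) and WT, with 3 biological replicates per strain. All cultures grew at 30 °C in SD-URA, a synthetic medium without uracil, and all received 2.5 mM dithiothreitol (DTT) for 2 h. DTT is a reducing agent that disturbs disulfide bonds in the endoplasmic reticulum (ER), and no culture without it was analysed here. The strains named hac1∆ lack HAC1, whose product drives transcription in the unfolded protein response. The labels do not say what "(hsf1)" adds to a strain, whether it is the same in both backgrounds, or how much phosphate the medium held.

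When phosphate is plentiful, the cyclin and kinase pair Pho80 and Pho85 phosphorylates the transcription factor Pho4 and keeps it out of the nucleus. When phosphate is scarce, Pho81 restrains the kinase, and Pho4 with its partner Pho2 switches on genes for phosphate uptake and scavenging. Phosphate that has entered the cell can be stored in the vacuole as polyphosphate, which the VTC complex makes from ATP.

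Values are log2 signals as the authors deposited them, so a difference of 1 is a 2-fold difference, and levels are compared between strains for the same gene only. A gene rose or fell where limma's moderated test, fitted to all 12 arrays and adjusted over all 5449 genes, gave an adjusted p under 0.05. Differences are given with the standard error (SE) of that fit, whose spread is pooled over the 12 arrays. The number of arrays limits the precision, and in RNA from whole cultures a change in every cell and a change in some cells cannot be told apart. HAC1 lay between 5.21 and 5.31 on the 6 hac1∆ and hac1∆(hsf1) arrays, below the background of 5.49, and between 10.37 and 10.86 on the 6 WT(hsf1) and WT arrays. HSF1, the gene of the heat shock transcription factor, averaged 10.67 in hac1∆(hsf1), 7.83 in hac1∆ and 8.52 in WT(hsf1), and in WT it stood at 8.08, 9.61 and 8.11 in replicates 1 to 3. WT replicate 2 thus stood apart in HSF1 from the other WT arrays. All 6 a-cell mating genes examined were above background on every array, from 7.09 to 10.46, and their summed linear signal was 2468 to 2625 in hac1∆(hsf1), 2792 to 2890 in hac1∆, 3997 to 4524 in WT(hsf1) and 3448 to 4220 in WT. Of 4 alpha-cell genes, 3 were above background on every array, and their sum was 316 to 349 in hac1∆(hsf1), 325 to 346 in hac1∆, 347 to 390 in WT(hsf1) and 537 to 732 in WT. MF(ALPHA)1, a gene of the alpha-factor pheromone, averaged 5.92 in hac1∆(hsf1), 6.17 in hac1∆, 6.65 in WT(hsf1) and 8.5 in WT, while MF(ALPHA)2 lay between 5.24 and 5.40 on all arrays, under the background, and STE3 and SAG1 between 6.56 and 7.10. MF(ALPHA)1 thus moved with each comparison against WT, and the a-cell sum with the loss of HAC1, and their part in the phosphate gene values was not tested.

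All 10 phosphate genes were above background on all 12 arrays, with a lowest single value of 5.68. The strains differed most in PHO84, whose strain means spanned 2.34 log2 units, more than 98.6% of all genes. VTC3 followed with a span of 0.75, SPL2 with 0.55 and PHO5 with 0.51, against a median span of 0.47 over all genes. PHO4 had the smallest span, 0.21, below that of most genes. Spread between replicates was also unequal: the residual SD was 0.35 for PHO84, 0.21 for PHO4, 0.19 for PHO89, 0.17 for SPL2 and 0.15 for PHO5, against a median of 0.08 over all genes, and 0.06 to 0.09 for PHO8, the VTC genes and PHM6.

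**Figure D1:**
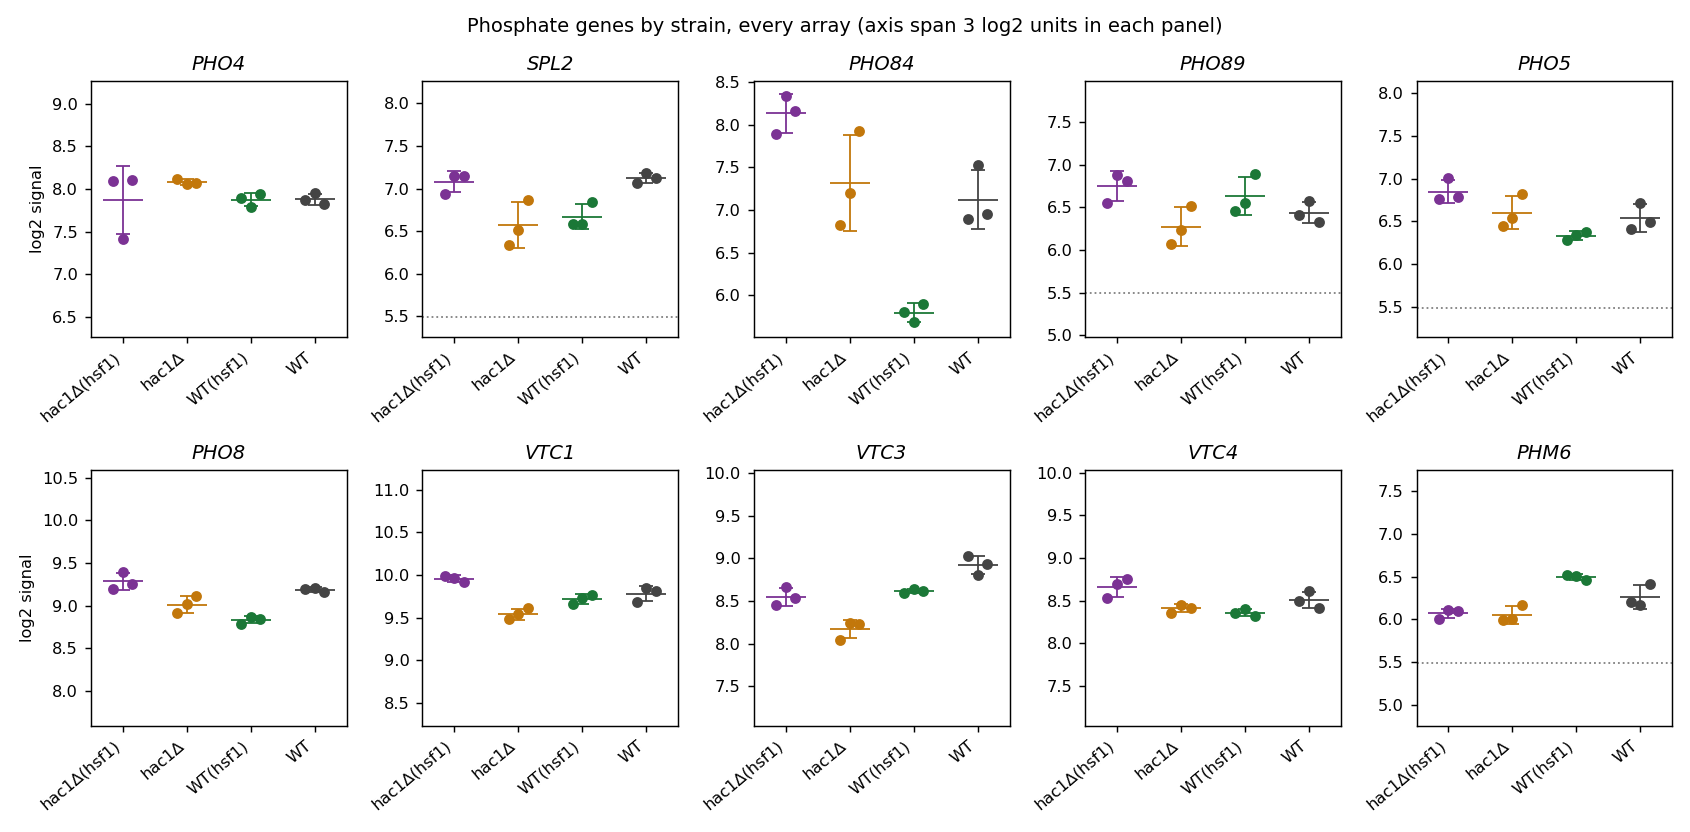
Log2 signal (y axis) of the 10 phosphate genes on every array of hac1∆(hsf1), hac1∆, WT(hsf1) and WT (x axis). Points are arrays, horizontal lines and bars are the mean and SD of 3 replicates, the dotted line is the background of 5.49 where it falls inside a panel, and each panel spans 3 log2 units. PHO84 is lowest in WT(hsf1), at 5.68 to 5.90, and PHO4 has 1 low array, hac1∆(hsf1) replicate 2 at 7.41.

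Among the regulators, PHO4, which encodes the activator of the system, differed little between strains. Its log2 signal was 8.09, 7.41 and 8.11 in the hac1∆(hsf1) replicates and 8.12, 8.06 and 8.07 in the hac1∆ replicates. It was 7.89, 7.79 and 7.94 in WT(hsf1) and 7.87, 7.95 and 7.82 in WT. All hac1∆ arrays lay above all WT arrays, and hac1∆(hsf1) replicate 2 lay below every other array. PHO4 passed in none of the comparisons, with limma differences between −0.21 ± 0.14 (SE), for hac1∆(hsf1) minus hac1∆, and 0.20 ± 0.14, for hac1∆ minus WT. The 95% interval of hac1∆(hsf1) minus WT was −0.32 to 0.29. The differences that involve hac1∆(hsf1) depended on 1 array: without its replicate 2, PHO4 was 0.22 above both WT(hsf1) (adjusted p = 0.00322) and WT (adjusted p = 0.00721), and 0.01 above hac1∆. With any array left out, hac1∆ minus WT was 0.17 to 0.24. In a fit of the 2 strains alone it passed in hac1∆ against WT, at 0.20 (adjusted p = 0.0128), and with array weights at 0.21 (adjusted p = 0.0434).

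SPL2 encodes a small protein that restrains low-affinity phosphate transport at the plasma membrane and is a known Pho4 target. It gave 6.94, 7.15 and 7.15 in hac1∆(hsf1) and 6.34, 6.51 and 6.87 in hac1∆. In WT(hsf1) it gave 6.58, 6.59 and 6.84, and in WT 7.07, 7.18 and 7.12. The hac1∆(hsf1) and WT arrays overlapped at the top, and the hac1∆ and WT(hsf1) arrays overlapped at the bottom. SPL2 fell by 0.55 ± 0.12 in hac1∆ (adjusted p = 0.00179) and by 0.45 ± 0.12 in WT(hsf1) (adjusted p = 0.00402), both against WT. It rose by 0.51 ± 0.12 in hac1∆(hsf1) against hac1∆ (adjusted p = 0.0023) and did not pass against WT, at −0.04 ± 0.12 with a 95% interval of −0.29 to 0.21.

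PHO84 encodes the high-affinity, proton-coupled phosphate transporter of the plasma membrane. Its log2 signal was 7.89, 8.34 and 8.16 in hac1∆(hsf1) and 6.82, 7.20 and 7.93 in hac1∆. It was 5.80, 5.68 and 5.90 in WT(hsf1) and 6.89, 7.52 and 6.95 in WT. The WT(hsf1) arrays lay below all others and close to background, the hac1∆(hsf1) arrays lay above all WT arrays, and hac1∆ spread over the whole WT range and beyond it. Against WT(hsf1), PHO84 was 5.06-fold higher in hac1∆(hsf1) (log2 difference 2.34 ± 0.24, adjusted p = 1.12e-06). Against WT it was 2.51-fold lower in WT(hsf1) (−1.33 ± 0.24, adjusted p = 0.000273) and 2.01-fold higher in hac1∆(hsf1) (1.01 ± 0.24, adjusted p = 0.00286). WT replicate 2 was the highest WT array, and without it these 2 differences from WT were −1.13 and 1.21. In hac1∆ PHO84 did not pass against WT, at 0.20 ± 0.24 with a 95% interval of −0.32 to 0.71, and it was −0.11 without hac1∆ replicate 3. PHO84 rose 1.76-fold in hac1∆(hsf1) against hac1∆ (0.81 ± 0.24, adjusted p = 0.0103), although the arrays overlapped. Without hac1∆ replicate 1 that difference was 0.56 and did not pass (adjusted p = 0.0512), and without hac1∆ replicate 3 it was 1.12.

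PHO89, the sodium-coupled high-affinity transporter known to work at alkaline pH, had another order of strains than PHO84. It ranged over 6.55 to 6.88 in hac1∆(hsf1), 6.07 to 6.52 in hac1∆, 6.46 to 6.89 in WT(hsf1) and 6.33 to 6.57 in WT. Only hac1∆(hsf1) and hac1∆ did not overlap, and PHO89 rose by 0.48 ± 0.13 between them (adjusted p = 0.00788). In WT(hsf1), where PHO84 was lowest, PHO89 was 0.20 ± 0.13 above WT and did not pass (adjusted p = 0.198). Against WT it was 0.31 ± 0.13 higher in hac1∆(hsf1), with an adjusted p of 0.0572. It passed in 7 of 13 alternatives, among them without WT replicate 2, at 0.38, without hac1∆(hsf1) replicate 1, at 0.41, and with quantile normalization, at 0.33.

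PHO5 encodes the repressible acid phosphatase, which is secreted and releases phosphate from organic compounds outside the cell. Its log2 signal was 6.76, 7.01 and 6.78 in hac1∆(hsf1) and 6.45, 6.54 and 6.82 in hac1∆. It was 6.28, 6.34 and 6.38 in WT(hsf1) and 6.41, 6.72 and 6.49 in WT. The WT(hsf1) arrays were the lowest, and hac1∆(hsf1) lay above WT and WT(hsf1) but overlapped hac1∆. PHO5 rose by 0.51 ± 0.10 in hac1∆(hsf1) against WT(hsf1) (adjusted p = 0.00047) and by 0.31 ± 0.10 against WT (adjusted p = 0.0199). The call against WT ended without WT replicate 1, at 0.25, without WT replicate 3, at 0.28, and without hac1∆(hsf1) replicate 2, at 0.23. Against hac1∆ it was 0.24 ± 0.10 higher in hac1∆(hsf1), with an adjusted p of 0.0568, and it passed without hac1∆ replicate 3, at 0.35, and with quantile normalization, at 0.25. With the replicate number as a block in the fit of all arrays, PHO5 passed there at 0.24 (adjusted p = 0.0355), and with the block in a fit of hac1∆(hsf1) and hac1∆ only, at 0.24 (adjusted p = 0.0395).

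PHO8, the alkaline phosphatase of the vacuole, had 9.20 to 9.40 in hac1∆(hsf1), 8.91 to 9.11 in hac1∆, 8.79 to 8.87 in WT(hsf1) and 9.16 to 9.21 in WT. The 4 strains stood in separate ranges except hac1∆(hsf1) and WT. PHO8 fell by 0.35 ± 0.06 in WT(hsf1) against WT (adjusted p = 0.000228). It rose by 0.27 ± 0.06 in hac1∆(hsf1) against hac1∆ (adjusted p = 0.00213) and by 0.45 ± 0.06 against WT(hsf1) (adjusted p = 1.89e-05). In hac1∆ it fell by 0.18 ± 0.06 against WT (adjusted p = 0.0301), but it did not pass after quantile normalization, at −0.16, nor when WT replicate 1 or 2 or hac1∆ replicate 1 or 2 was left out, with values of −0.18 to −0.12.

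The VTC genes encode subunits of the polyphosphate polymerase: VTC4 its catalytic subunit, VTC3 an accessory subunit and VTC1 a small membrane subunit. VTC3 had 8.45, 8.66 and 8.54 in hac1∆(hsf1) and 8.05, 8.24 and 8.23 in hac1∆. It had 8.59, 8.64 and 8.62 in WT(hsf1) and 9.03, 8.81 and 8.93 in WT. The WT arrays lay above and the hac1∆ arrays below all others, while hac1∆(hsf1) and WT(hsf1) overlapped in between. VTC3 was 1.69-fold lower in hac1∆ than in WT (log2 difference −0.75 ± 0.07, adjusted p = 4.47e-06), the largest fall among the 10 genes in that comparison. It fell less in hac1∆(hsf1), by 0.37 ± 0.07 (adjusted p = 0.000708), and in WT(hsf1), by 0.31 ± 0.07 (adjusted p = 0.00179), each against WT. In hac1∆(hsf1) it rose by 0.38 ± 0.07 against hac1∆ (adjusted p = 0.000582).

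VTC1 had 9.99, 9.97 and 9.92 in hac1∆(hsf1) and 9.48, 9.54 and 9.61 in hac1∆. It had 9.66, 9.73 and 9.77 in WT(hsf1) and 9.69, 9.85 and 9.81 in WT, and these 2 strains overlapped between the hac1∆(hsf1) arrays above and the hac1∆ arrays below. VTC1 rose by 0.42 ± 0.05 in hac1∆(hsf1) against hac1∆ (adjusted p = 3.27e-05) and by 0.18 ± 0.05 against WT (adjusted p = 0.0135), and it fell by 0.24 ± 0.05 in hac1∆ against WT (adjusted p = 0.00279). The rise against WT did not pass without WT replicate 1, at 0.13. VTC4 moved within a narrower range, with means of 8.66 ± 0.12 (SD, n = 3) in hac1∆(hsf1), 8.41 ± 0.05 in hac1∆, 8.36 ± 0.04 in WT(hsf1) and 8.51 ± 0.09 in WT. It rose by 0.25 ± 0.06 in hac1∆(hsf1) against hac1∆ (adjusted p = 0.00499) and by 0.30 ± 0.06 against WT(hsf1) (adjusted p = 0.000752). Against WT it did not pass in hac1∆, at −0.10 ± 0.06 (adjusted p = 0.218), or in WT(hsf1), at −0.15 ± 0.06 (adjusted p = 0.0507), where it passed without WT replicate 3, at −0.19. VTC1 and VTC3 therefore both fell in hac1∆ against WT, and VTC4 was not called there.

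PHM6, a gene of unknown function known to respond to phosphate through Pho4, was highest where PHO84 was lowest. Its log2 signal was 6.01, 6.11 and 6.10 in hac1∆(hsf1) and 5.99, 6.0 and 6.17 in hac1∆. It was 6.52, 6.51 and 6.46 in WT(hsf1) and 6.20, 6.17 and 6.42 in WT. The WT(hsf1) arrays were the highest and both hac1∆ strains the lowest, with 1 hac1∆ array level with the lowest WT array. PHM6 rose by 0.23 ± 0.07 in WT(hsf1) against WT (adjusted p = 0.0111) and fell by 0.42 ± 0.07 in hac1∆(hsf1) against WT(hsf1) (adjusted p = 0.000105). Against WT it fell by 0.21 ± 0.07 in hac1∆ (adjusted p = 0.0235) and by 0.19 ± 0.07 in hac1∆(hsf1) (adjusted p = 0.032). Without WT replicate 3 those 2 differences were −0.13 and −0.11 and did not pass. The call in hac1∆ also ended without hac1∆ replicate 1 or 2, at −0.18 each, and in a fit of the 2 strains alone. The call in hac1∆(hsf1) ended without hac1∆(hsf1) replicate 1, at −0.16, with array weights and in a fit of the 2 strains alone.

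**Figure D2:**
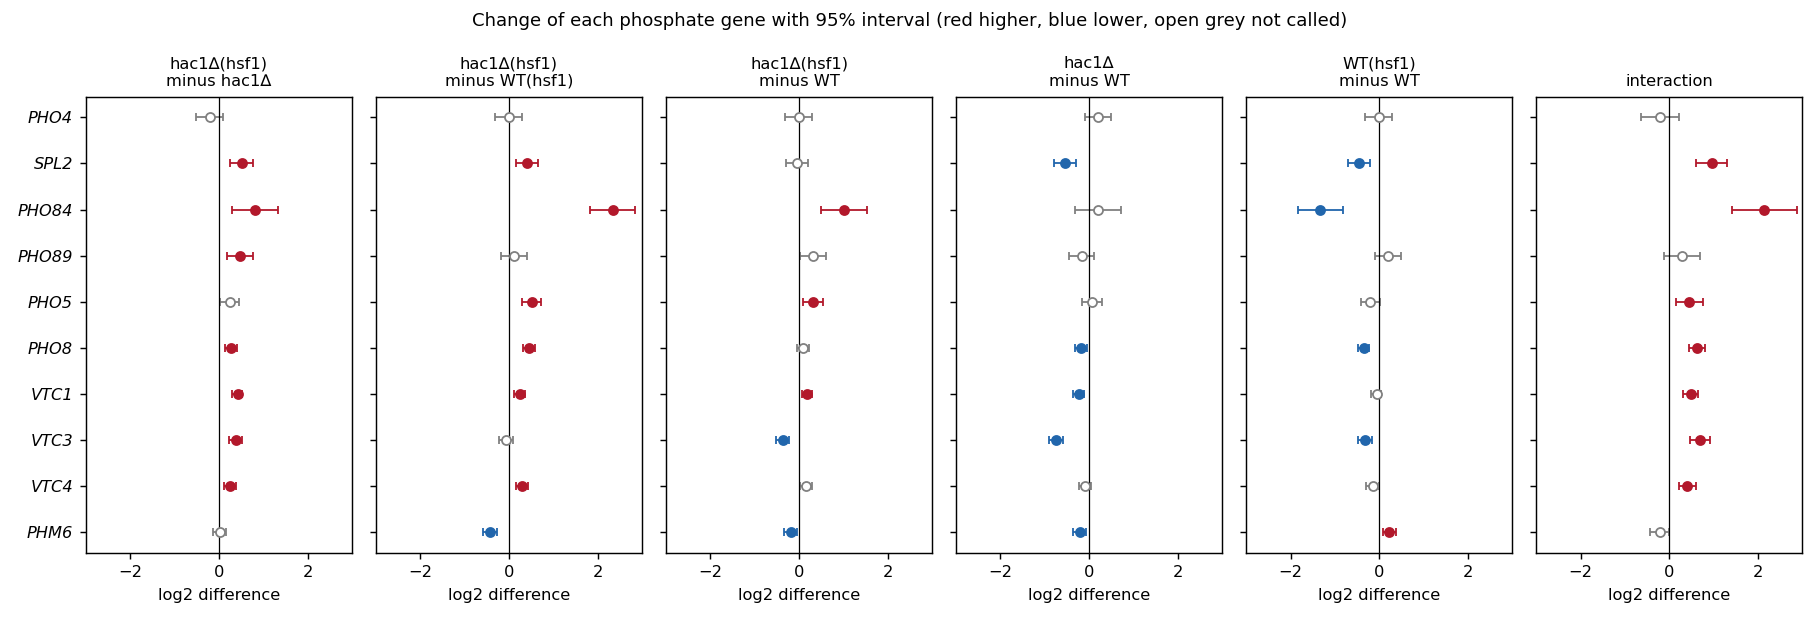
Log2 difference (x axis) of each phosphate gene (y axis) in 5 comparisons of strains and in the interaction, with 95% intervals from limma. Red points are higher and blue points lower in the first-named strain at an adjusted p under 0.05, and open grey points did not pass. In hac1∆(hsf1) minus hac1∆ 7 genes were higher and none lower, and the interval of PHO84 in hac1∆(hsf1) minus WT(hsf1) runs from 1.83 to 2.85.

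Taken by comparison, the addition named (hsf1) went with higher levels in cells without HAC1. In hac1∆(hsf1) against hac1∆, 7 of the 10 genes rose and 0 fell (limma), where 26.5% of all genes rose and 30.7% fell. As the 10 genes were chosen with earlier results of these data known, shares over all genes are given for scale only. The 7 were SPL2, PHO84, PHO89, PHO8, VTC1, VTC3 and VTC4, and the median difference of the 10 genes was 0.33, against −0.01 over all genes. At an unadjusted p under 0.05 the counts were 8 higher and 0 lower. For 6 of the 10 genes the 2 sets of arrays did not overlap, against 62.8% of all genes. In cells with HAC1 the addition of the same name went with lower levels of 4 genes, a share not far from that over all genes. In WT(hsf1) against WT, SPL2, PHO84, PHO8 and VTC3 fell and PHM6 rose, where 33.8% of all genes fell and 32.3% rose. The median difference of the 10 genes was −0.18, against −0.01 over all genes, and the arrays did not overlap for 7 of the 10, against 71.5% of all genes.

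The interaction, which is the (hsf1) difference in hac1∆ cells minus the (hsf1) difference in WT cells, tested whether these 2 differences were unlike each other. It passed as positive for 7 of the 10 genes and as negative for 0, where 35.7% of all genes were positive and 34.0% negative, 69.6% in all. At an unadjusted p under 0.05 the counts were also 7 and 0. PHO84 had the largest value, 2.14 ± 0.33 (adjusted p = 8.18e-05), followed by SPL2 with 0.96 ± 0.16 (adjusted p = 0.000174) and VTC3 with 0.69 ± 0.10 (adjusted p = 4.45e-05). PHO8, VTC1, PHO5 and VTC4 had values of 0.63, 0.48, 0.45 and 0.40. PHO4, PHO89 and PHM6 did not pass, at −0.21 ± 0.20, 0.28 ± 0.19 and −0.21 ± 0.10, and PHM6 passed at −0.29 without WT replicate 3. HSF1 itself moved with this term, at 2.92 ± 0.42 (adjusted p = 4.13e-05). It rose by 2.84 ± 0.30 in hac1∆(hsf1) against hac1∆ and was not called in WT(hsf1) against WT, at −0.08 ± 0.30. The WT(hsf1) arrays, at 8.41 to 8.63, lay above WT replicates 1 and 3, at 8.08 and 8.11, and below WT replicate 2, at 9.61. WT replicate 2 thus weighs on this difference and on the interaction of HSF1. The part of HSF1 in the phosphate gene values was not tested. If (hsf1) is not the same addition in both strains, the term cannot tell background and addition apart.

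Strains without HAC1 were compared with strains that have it, both without (hsf1) and with it. HSF1 differed in these pairs too, at −0.77 ± 0.30 in hac1∆ against WT (limma, adjusted p = 0.0464) and 2.15 ± 0.30 in hac1∆(hsf1) against WT(hsf1). The first value leans on WT replicate 2, at 9.61. The hac1∆ arrays lay at 7.75 to 7.87, and WT replicates 1 and 3 at 8.08 and 8.11. The part of HSF1 in the phosphate gene values was not tested. In hac1∆ against WT, SPL2, PHO8, VTC1, VTC3 and PHM6 fell and 0 of the 10 genes rose, where 22.3% of all genes fell and 28.4% rose. The unadjusted counts were likewise 5 lower and 0 higher, and the arrays did not overlap for 5 of the 10, against 60.1% of all genes. The count of lower genes was 3 without hac1∆ replicate 1 and 3 without hac1∆ replicate 2. In hac1∆(hsf1) against WT(hsf1), 6 genes rose and PHM6 fell, where 41.7% of all genes rose and 35.8% fell. The 6 were SPL2, PHO84, PHO5, PHO8, VTC1 and VTC4, and the median difference of the 10 genes was 0.27, against 0.04 over all genes. The arrays did not overlap for 7 of the 10, against 79.4% of all genes. VTC3 did not pass there, at −0.06 ± 0.07 with a 95% interval of −0.22 to 0.09. In hac1∆(hsf1) against WT, PHO84, PHO5 and VTC1 rose and VTC3 and PHM6 fell, where 29.0% of all genes rose and 28.1% fell, and the arrays did not overlap for 5 of the 10, against 57.7% of all genes. This last count was the least stable: 1 gene was higher without WT replicate 1, and 5 were higher without WT replicate 2 or without hac1∆(hsf1) replicate 1. These comparisons share arrays, so they are not independent of each other.

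A list of 28 other genes of phosphate metabolism was examined beside these, and 25 of them were measured. In hac1∆(hsf1) against hac1∆, 9 of the 25 rose and 7 fell, with a median difference of 0.08. In hac1∆(hsf1) against WT(hsf1), 12 rose and 7 fell, with a median of 0.16, and against WT 12 rose and 5 fell, with a median of 0.12. In hac1∆ against WT 9 rose and 6 fell, and in WT(hsf1) against WT 8 rose and 7 fell, with medians of 0.02 and −0.07. In the order given, 16, 19, 17, 15 and 15 of the 25 passed, beside 57.2%, 77.5%, 57.1%, 50.7% and 66.1% of all genes.

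Largest among them were the changes of PHM8 and PHM7. PHM8 encodes a phosphatase that acts on nucleotides and lysophosphatidic acid, and PHM7 a membrane protein of unknown function. PHM8 had 10.05, 9.89 and 9.86 in hac1∆(hsf1), 9.05, 9.08 and 9.01 in hac1∆, 7.72, 7.80 and 8.11 in WT(hsf1), and 9.55, 9.76 and 9.63 in WT. No 2 strains overlapped, with hac1∆(hsf1) highest and WT(hsf1) lowest, the same strains as for PHO84. PHM8 fell by 1.77 ± 0.09 in WT(hsf1) against WT (adjusted p = 3.72e-09) and rose by 0.89 ± 0.09 in hac1∆(hsf1) against hac1∆ (adjusted p = 4.85e-06). PHM7 fell by 1.49 ± 0.08 in WT(hsf1) against WT and was 1.69 ± 0.08 higher in hac1∆(hsf1) than in WT(hsf1) (adjusted p = 5.27e-09 and 9.39e-10). The interaction was 2.66 ± 0.13 for PHM8 and 2.03 ± 0.11 for PHM7.

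PHO3 and PHO11, of the same family as PHO5, did not share its order. PHO3, the constitutive acid phosphatase, averaged 5.37 ± 0.12 in hac1∆(hsf1), 5.91 ± 0.07 in hac1∆, 6.60 ± 0.02 in WT(hsf1) and 5.68 ± 0.10 in WT (SD, n = 3 each). It was thus highest in WT(hsf1), where PHO5 was lowest, and it rose there by 0.92 ± 0.07 against WT (adjusted p = 7.12e-08). On the 3 hac1∆(hsf1) arrays PHO3 was below background, so its fall in hac1∆(hsf1) against WT(hsf1), counted from that background, was at least 2.15-fold (means of 5.37 and 6.60, adjusted p = 2.93e-09). PHO11, whose sequence is nearly the same as that of PHO12 so that its signal may belong to either, rose by 0.25 in WT(hsf1) and fell by 0.31 in hac1∆, each against WT. PHO13, a phosphatase of metabolic repair, fell by 0.60 ± 0.06 in hac1∆(hsf1) against WT (adjusted p = 6.19e-06).

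Among other transporters, PHO91, which exports phosphate from the vacuole, averaged 7.24 in hac1∆(hsf1), 8.02 in hac1∆, 8.01 in WT(hsf1) and 7.56 in WT. It fell by 0.79 ± 0.06 in hac1∆(hsf1) against hac1∆ and by 0.78 ± 0.06 against WT(hsf1) (adjusted p = 4.47e-07 and 7.72e-08). Against WT it rose in hac1∆, by 0.47 ± 0.06, so it stood opposite to VTC3 there. PHO90, a low-affinity transporter of the plasma membrane, was higher with (hsf1) in both backgrounds, by 0.65 ± 0.09 in hac1∆(hsf1) against hac1∆ (adjusted p = 3.83e-05) and by 0.60 ± 0.09 in WT(hsf1) against WT (adjusted p = 4.74e-05), with an interaction of 0.05 ± 0.12 that did not pass. SYG1, a plasma membrane protein with an SPX domain, rose by 0.64 ± 0.07 in hac1∆(hsf1) against hac1∆ and by 0.36 ± 0.07 against WT. GIT1, a glycerophosphoinositol permease, rose by 0.34 ± 0.07 in hac1∆(hsf1) against WT.

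On the kinase side of the pathway, PHO81 and PHO85 rose by 0.31 (adjusted p = 0.00066) and 0.21 (adjusted p = 0.000481) in hac1∆(hsf1) against WT(hsf1). Against hac1∆ they were not called, at −0.02 and −0.03, nor in the interaction, at 0.10 and 0.06. PHO80 rose by 0.20 in hac1∆(hsf1) against hac1∆ (adjusted p = 0.0084), with an interaction of 0.25 (adjusted p = 0.0118). It was not called in hac1∆(hsf1) against WT(hsf1), at 0.12 (adjusted p = 0.0644). PHO85 and PHO81 rose by 0.15 and 0.21 in hac1∆ against WT, and PHO80 was not called there, at −0.13. In WT(hsf1) against WT none of these 3 passed, at −0.09, −0.12 and −0.05. PHO2, the partner of Pho4, fell by 0.38 in WT(hsf1) against WT. KCS1, an inositol phosphate kinase, fell by 0.58 ± 0.07 in hac1∆ against WT (adjusted p = 5.45e-05), and GDE1, a glycerophosphodiesterase, rose by 0.42 ± 0.06 (adjusted p = 0.000106). PHO23, a subunit of the Rpd3 large histone deacetylase complex, averaged 8.15 in hac1∆(hsf1), 7.41 in hac1∆, 7.19 in WT(hsf1) and 7.80 in WT, so it rose by 0.73 ± 0.07 in hac1∆(hsf1) against hac1∆ and fell by 0.61 ± 0.07 in WT(hsf1) against WT. Of the polyphosphate genes, VTC2, a paralog of VTC3, rose by 0.17 in WT(hsf1) against WT and was not called in hac1∆, at 0.04. PPX1, an exopolyphosphatase, rose by 0.33 in hac1∆ and by 0.28 in WT(hsf1), each against WT. It fell by 0.41 in hac1∆(hsf1) against hac1∆ (adjusted p = 3.98e-06) and by 0.36 against WT(hsf1) (adjusted p = 3.93e-06), and its interaction was −0.69 (adjusted p = 3.17e-07). CTF19 was at or below background on all 12 arrays.

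**Figure D3:**
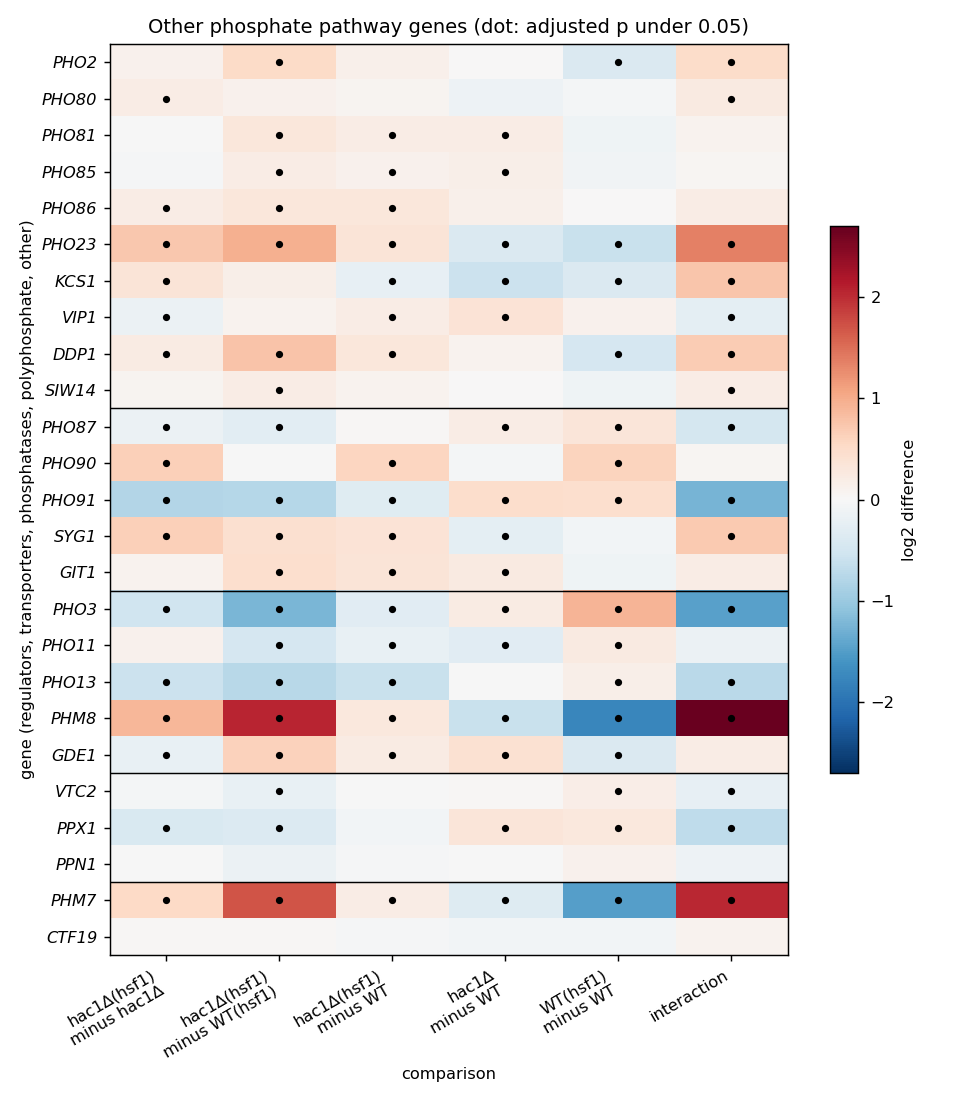
Log2 difference (colour) of 25 other phosphate pathway genes (rows, in blocks of regulators, transporters, phosphatases, polyphosphate genes and others) in 5 comparisons of strains and the interaction (columns). Dots mark an adjusted p under 0.05 in limma. PHM8, PHM7 and PHO23 are red in the interaction column, at 2.66, 2.03 and 1.35, and PHO3 and PHO91 are blue, at −1.46 and −1.25.

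Replicates of a strain also differed in several of the 10 genes at once, a pattern noticed after the values were seen. In hac1∆, replicate 3 was the highest array for 7 of the 10 genes, against 46.2% of all genes, and replicate 1 the lowest for 9, against 35.8%. On hac1∆ replicate 3 PHO84 stood 0.61 above the strain mean, SPL2 0.29, PHO89 0.24 and PHO5 0.22, while PHO4 was at −0.02. In WT, replicate 2 was highest for 8 of the 10 genes, against 38.8% of all genes, with PHO84 0.40 above the mean. The array with the most PHO84 in a strain was also the array with the most PHO89 and PHO5 in all 4 strains, and with the most SPL2, PHO8 and VTC1 in 3 of the 4. PHO4 and PHM6 shared it in 2 strains, and VTC3 and VTC4 in 1. Over all genes, 3.56% shared the highest array with PHO84 in all 4 strains and 17.2% in 3 strains.

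**Figure D4:**
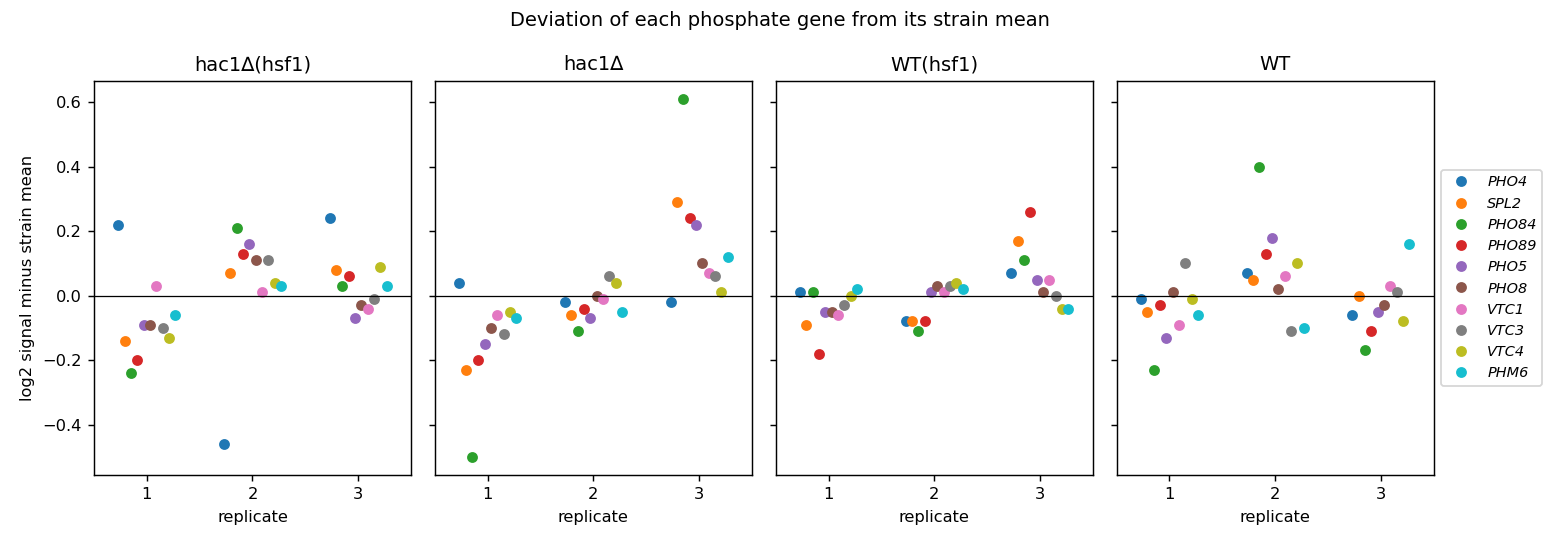
Log2 signal minus the strain mean (y axis) of the 10 phosphate genes on replicates 1 to 3 (x axis) of each strain, where each point is a gene on an array. PHO84 stands at 0.61 on hac1∆ replicate 3 and 0.40 on WT replicate 2 and PHO4 at −0.46 on hac1∆(hsf1) replicate 2.

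Genes with the most similar profile were found by the root mean square difference over the 12 arrays after each gene was centred on its own mean. For PHO84 these were ATO2, YDR222W, YKL107W, HBT1 and YNR014W, at 0.300 to 0.323 log2 units, about the size of the residual SD of PHO84. ATO2, for example, averaged 9.73 in hac1∆(hsf1), 8.57 in hac1∆, 7.13 in WT(hsf1) and 8.29 in WT. For VTC3 the nearest were DAN4, ICP55, YLR278C, SAR1 and YIL001W, at 0.055 to 0.103. SAR1, the GTPase of COPII vesicles that leave the ER, averaged 10.51 in hac1∆(hsf1), 10.19 in hac1∆, 10.48 in WT(hsf1) and 10.80 in WT. None of the 10 phosphate genes was among the nearest 5 of PHO84 or VTC3. Profiles were not scaled, so a gene with smaller changes stands far from PHO84 even with the same order of strains. The span of strain means was 2.34 for PHO84 and 0.75 for VTC3, the next largest of the 10. For PHO84 the absence of the other phosphate genes therefore says nothing about a shared order.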

How the data were processed

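RNA of 12 cultures was measured on Affymetrix yeast arrays, 1 array each. The authors deposited a log2 signal for each probe set. The submitters' processing notes name PLIER; how background and arrays were adjusted is not given in the sources used here. The log2 unit was read from the values, which run from 4.84 to 12.75, with array medians of 5.9952 to 6.0654; the floor compresses differences of dim genes. No pseudocount or further normalization was applied.

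Of 10928 probe sets, 5498 matched S. cerevisiae genes through the platform annotation and the R64 gene table. The highest-mean probe set was kept for 47 genes with several, leaving 5449 genes. Background, 5.49, is the 95th percentile of mean signal of 1746 probe sets with another listed gene. Strain means were estimated from the 12 arrays together with limma 3.58.1 under R 4.3.3, leaving 8 residual degrees of freedom, with Benjamini-Hochberg adjustment over all genes. The code was run on simulated arrays with few changed genes, in hac1∆ minus WT only, and independent noise. That setting is simpler than these data, so the run does not measure error rates here.

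The labels call replicates biological. They do not say that a replicate number marks a shared day or batch. In hac1∆(hsf1) and hac1∆ the same-numbered arrays deviated together, with correlations across genes of 0.152 to 0.502 for all 3 numbers. Their 6 different-numbered pairs ran from −0.461 to 0.156, with 2 over 0.1, so the ranges overlap slightly. Deviations cancel out within a strain, so positive same-numbered correlations draw the different-numbered ones down, and the contrast is partly built in. The numbers were taken to pair these 2 strains from these same correlations, which is an assumption. The main fit does not use it, and the replicate block is given as an alternative. In the other strain pairs at most 2 of 3 correlations exceeded 0.1. The 10 genes and the lists were chosen with earlier results of these data known. Other pathway genes were named where they were among the 5 largest called changes of a comparison or changed by at least 1, and further ones, named after their values were seen, are PHO2, PHO80, PHO81, PHO85, PHO11, VTC2, PPX1 and CTF19. For PHO84 and VTC3 the 5 nearest profiles were named. Alternatives were quantile normalization, a filter on dim genes, an intensity trend, array weights, the compared strains alone, a replicate block, that block in hac1∆(hsf1) and hac1∆ only (added after the data were seen), the mean of probe sets, and each array left out.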

Additional observations from a re-analysis of the deposited data

Results flagged for a closer look

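The (hsf1) difference in hac1∆ cells and the (hsf1) difference in WT cells were unlike each other, by limma's interaction term (first minus second, log2), in 7 of the 10 phosphate genes. That count is near the share over all genes, of which 69.6% passed this term. All 7 were positive, where 35.7% of all genes were positive and 34.0% negative. The values were 2.14 for PHO84 (adjusted p = 8.18e-05), 0.96 for SPL2, 0.69 for VTC3, 0.63 for PHO8, 0.48 for VTC1, 0.45 for PHO5 and 0.40 for VTC4. These stayed positive and passed with each of the 12 arrays left out in turn, PHO84 at 1.89 to 2.45. Among the other pathway genes the 5 largest were 2.66 for PHM8, 2.03 for PHM7, −1.46 for PHO3, 1.35 for PHO23 and −1.25 for PHO91. The value of PHO3 holds hac1∆(hsf1) arrays below background and is compressed by it.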

How the results depend on the processing

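Of 840 recomputed differences of the 10 genes, 777 kept their sign and their side of the threshold, 18 lost the call, 26 gained one with the same sign and 19 changed sign. Among the sign changes, PHO4 without hac1∆(hsf1) replicate 2 also gained a call, in hac1∆(hsf1) minus WT(hsf1) and in hac1∆(hsf1) minus WT. With array weights hac1∆(hsf1) minus WT had 1 gene lower, hac1∆ minus WT had 1 higher and the interaction had 1 lower. When only the compared strains were fitted, hac1∆(hsf1) minus WT had 1 lower and hac1∆ minus WT had 1 higher. With single arrays left out, hac1∆(hsf1) minus WT had 1 to 5 higher and 1 to 2 lower, hac1∆ minus WT had 3 to 5 lower, and the interaction had 0 to 1 lower. The cause was not tested. In hac1∆(hsf1) minus hac1∆, the strains taken as paired by replicate number, the replicate block brought 8 genes higher instead of 7. PHO5 passed at 0.24, and no other call of the 10 genes changed. The count was also 8, through PHO5, with quantile normalization, an intensity trend, array weights and without hac1∆ replicate 3. With single arrays left out it ran from 6 to 8. In the other strain pairs the arrays share only a number. There, with the replicate block, hac1∆(hsf1) minus WT had 5 genes higher instead of 3, as PHO89 and VTC4 passed. VTC4 in WT(hsf1) minus WT also passed, and the block changed no other call among the 10 genes.

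Sign changes were in differences that had not passed. With single arrays left out PHO4 ranged over −0.33 to 0.01 in hac1∆(hsf1) minus hac1∆, −0.12 to 0.22 in hac1∆(hsf1) minus WT(hsf1), −0.13 to 0.22 in hac1∆(hsf1) minus WT, −0.04 to 0.03 in WT(hsf1) minus WT and −0.32 to 0.02 in the interaction. Likewise SPL2 ranged over −0.08 to 0.03 in hac1∆(hsf1) minus WT, PHM6 over −0.01 to 0.08 in hac1∆(hsf1) minus hac1∆, and PHO84 and PHO5 over −0.11 to 0.45 and −0.04 to 0.16 in hac1∆ minus WT. With array weights PHO4 was 0.04 in hac1∆(hsf1) minus WT(hsf1), 0.05 in hac1∆(hsf1) minus WT and 0.01 in WT(hsf1) minus WT, and SPL2 was 0.01 in hac1∆(hsf1) minus WT. Quantile normalization put PHO4 at 0.01 in WT(hsf1) minus WT. Background correction could not be varied, since scanner files were not used here.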
